A study of Mus musculus with 2 samples.

Results

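The vacuolar-type H+-ATPase (V-ATPase) and lysosomal genes of normal mouse LKS+ cells were compared between cells co-cultured with spleen (SP)-derived extracellular vesicles (EVs) of control mice and cells co-cultured with those of mice with chronic myeloid leukemia (CML). Genes were chosen by symbol: every symbol that starts with Atp6v0, Atp6v1 or Atp6ap, which gave 28, and 26 listed lysosomal genes, of which 18 encode hydrolases and 8 encode other lysosomal proteins. Of these 54 symbols, 52 had a probe among the 22911 named genes of the array, and 45 were well above background on both arrays, as were 13411 of all named genes. The set had been proposed with results of these same arrays in view, so the values below describe the 2 arrays and support nothing beyond them.

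LKS+ cells are bone marrow cells without lineage markers that carry Kit and Sca-1, a population that holds hematopoietic stem and progenitor cells (HSPCs). Cells of wild-type mice were propagated in serum-free medium with stem cell factor, IL-6 and IL-3, and both cultures then received 150 µg/ml EVs for 24 h. In the labels the EVs come from normal mouse spleen or CML mouse spleen. The methods add that the CML arose from cells transduced with BCR-ABL and that the CML donors of these EVs were irradiated, with no irradiation of control donors mentioned, so whether donors had leukemia and whether they were irradiated cannot be told apart. RNA of each culture was hybridized to 1 one-colour Agilent array, so no ratio has a replicate check, no test between conditions was possible, and the number of arrays limits the precision.

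The V-ATPase is a rotary proton pump. Its cytosolic V1 sector hydrolyzes ATP, its membrane-embedded V0 sector carries protons into the lumen, and the acid pH so produced lets the hydrolases of lysosomes work. Lysosomes digest what cells take up by endocytosis, EVs included, and what autophagy delivers, and the transcription factor TFEB is known to raise many of these genes through a short promoter element, CACGTG, often within TCACGTGA.

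This element was therefore looked for in the RefSeq promoter windows of GRCm38.p6, which run from 250 bases before to 50 bases after the annotated start of a gene. CACGTG and TCACGTGA read the same on both strands, and every TCACGTGA holds a CACGTG. A window existed for 41 of the 54 symbols. CACGTG was present in 12 of these 41 (29.3%) and in 8.09% of the windows of all 27025 genes that had one. It was found in 4 of 19 V-ATPase genes, 6 of 15 hydrolase genes and 2 of 7 other lysosomal genes. The longer TCACGTGA was present in 7 of 41 (17.1%) and in 1.12% of all genes. A match describes the letters of a window and is not shown to be a bound site. Below are stretches upstream of the start from a V1 subunit gene, from both membrane protein genes with matches, from a pair of protease genes and from 1 glycosidase gene whose ratio lay below 0, each 5′ to 3′ on the strand of its gene with every CACGTG in capitals.
Atp6v1a, chr16:44139373-44139402, minus strand: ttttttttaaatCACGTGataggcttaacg
Lamp1, chr8:13159088-13159160, plus strand: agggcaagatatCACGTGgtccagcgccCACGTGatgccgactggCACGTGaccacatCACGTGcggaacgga
Mcoln1, chr8:3500436-3500491, plus strand: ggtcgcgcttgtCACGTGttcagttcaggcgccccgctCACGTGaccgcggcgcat
Ctsa, chr2:164833749-164833772, plus strand: tgagcaaactgtCACGTGatgcag
Ctsd, chr7:142387908-142387937, minus strand: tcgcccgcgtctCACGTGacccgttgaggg
Glb1, chr9:114401018-114401047, plus strand: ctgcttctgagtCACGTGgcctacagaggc

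The Lamp1 stretch held 4 copies within 73 bases and the Mcoln1 stretch held 2 within 56 bases. The medians of the ratios were close with and without the element. The median log2 ratio was 0.10 in the 12 measured genes with CACGTG, of which 10 were higher with CML EVs. It was 0.11 in the 23 measured genes whose window lacked it, of which 21 were higher. For TCACGTGA the order was the reverse. The median was 0.13 in the 7 measured genes with it (6 higher) and 0.098 in the 28 without it (25 higher).

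All signals given here are linear Agilent intensities after each array was scaled to the same trimmed mean, and a log2 ratio is CML EV minus control EV. Signals of different genes come from different probes and are not compared with each other. Of the spots of each array, 54.4% were well above background with control EVs and 53.3% with CML EVs, and none was saturated. As a scale for reading small ratios, the log2 ratio varied with a median SD of 0.052 over the repeated spots of 197 probes with a log2 signal of at least 8, and of 0.15 for 5 dimmer probes. This spread is within an array and contains no difference between cultures.

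Most of the measured genes had a slightly higher signal with CML EVs. The log2 ratio was above 0 in 40 of 45, where 51.9% of all measured genes were above 0. By group this was 17 of 19 V-ATPase genes, 16 of 18 hydrolases and 7 of 8 other lysosomal genes. The median log2 ratio was 0.12 (1.08-fold) for V-ATPase genes, 0.076 (1.05-fold) for hydrolases and 0.11 (1.08-fold) for the others, beside 0.0065 over all measured genes. Among the alternative scalings and settings, between 38 and 42 of the 45 genes were above 0. With a looser filter on dim probes this was 40 of 46, and with none 45 of 52. The shift was therefore broad in direction and small in size, as the plot of signals by gene shows.

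**Figure D1:**
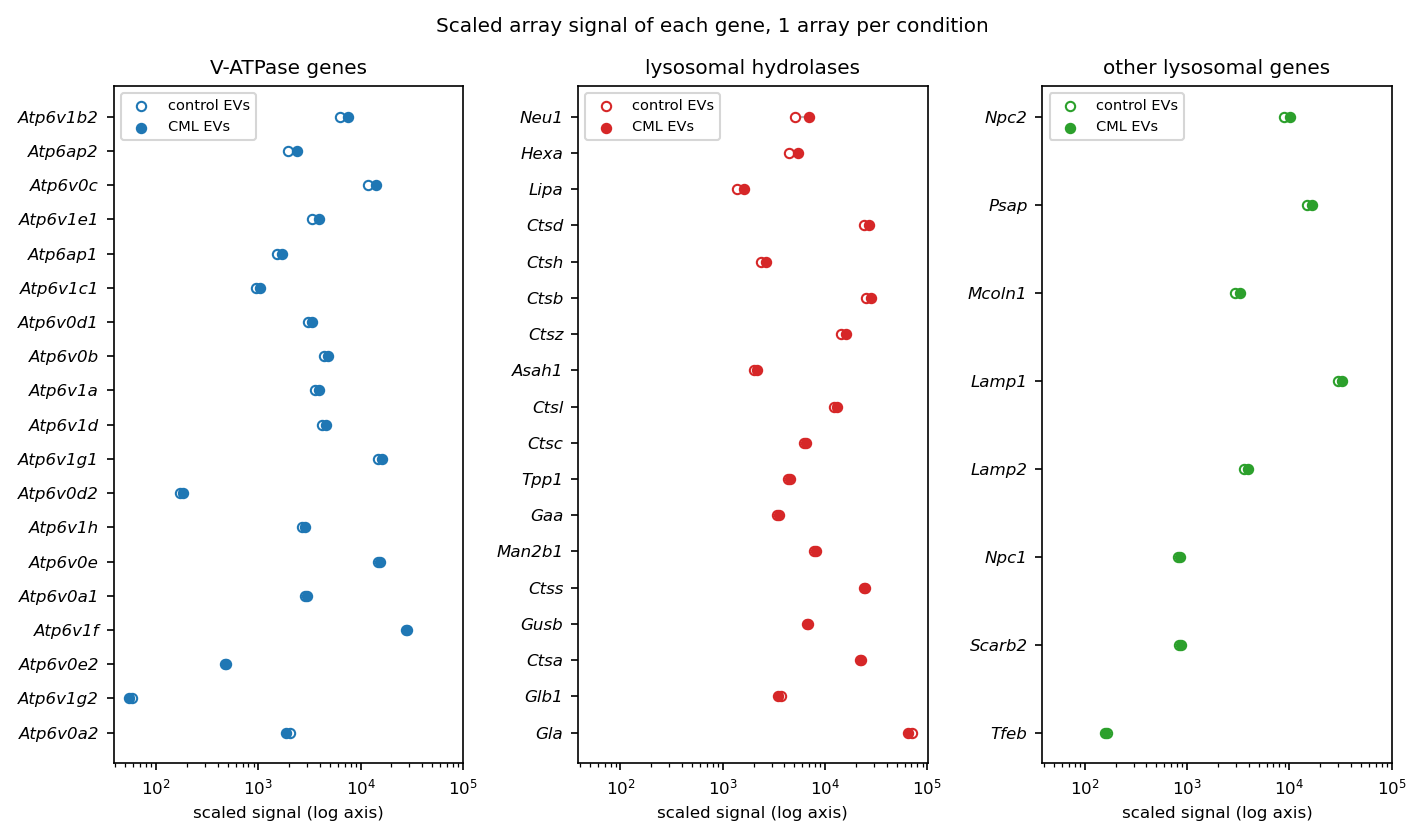
Scaled signal of each measured gene on a log axis, in 3 panels for 19 V-ATPase genes, 18 lysosomal hydrolases and 8 other lysosomal genes. Open points are the control EV array and filled points the CML EV array, 1 array each, with no error bars. In each panel genes run from the highest ratio at the top to the lowest, and the filled point lies to the right in 40 of 45 genes.

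Few of these genes passed a larger fold. At least 1.2-fold higher with CML EVs were 2 V-ATPase genes, 2 hydrolases and none of the others, 4 of 45 in all, where 6.96% of all measured genes were that much higher. These were Atp6v1b2, Atp6ap2, Hexa and Neu1. Under quantile normalization, normexp background correction or loess, Neu1 alone remained past 1.2-fold, and scaling to the median gave 4 V-ATPase genes, 3 hydrolases and 1 other gene. None of the 45 was at least 1.2-fold lower, where 7.52% of all measured genes were. At 1.1-fold, 7 V-ATPase genes, 7 hydrolases and 3 others were higher, beside 17.3% of all genes, and 1 gene, Atp6v0a2, was lower, beside 17.2% of all genes. Because most of these genes gave a bright signal, they were also set beside the 5707 genes with a mean log2 signal of at least 10. Of 38 members in that range, 35 were above 0, beside 59.8% of the bright genes. At least 1.1-fold higher were 16 of the 38, beside 14.0% of the bright genes. All 4 genes past 1.2-fold lay in that range, 4 of 38, beside 202 (3.54%) of the 5707 bright genes. Lower calls were rarer in bright genes than in all genes. Of the 5707, 50 were at least 1.2-fold lower and 312 at least 1.1-fold lower. The counts at 1.1-fold, and those of bright genes at 1.2-fold, were taken with the scaling used only. The median was 0.12 in the 38 members and 0.023 in all bright genes.

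**Figure D2:**
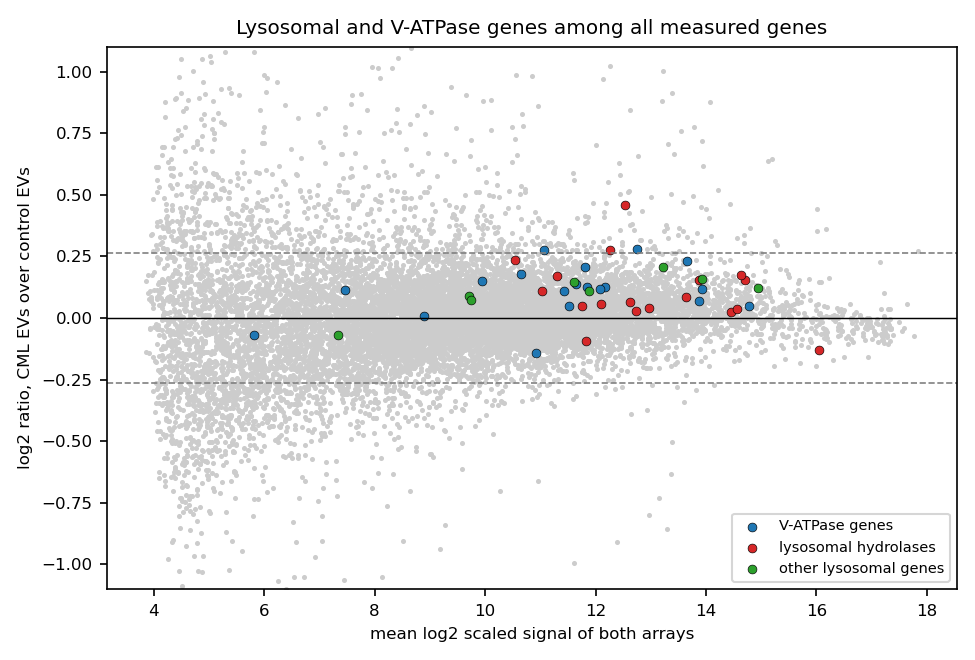
Each gene's log2 ratio (CML EV minus control EV, vertical axis) by its log2 scaled signal averaged over both arrays (horizontal axis). Grey points are all 13411 measured genes, 58 of which lie beyond the axis, coloured points are the 45 measured V-ATPase and lysosomal genes, and dashed lines mark 1.2-fold. The coloured points lie mostly between 0 and the upper dashed line, and 4 of them lie above it.

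The ratios of V-ATPase genes and hydrolases overlapped widely. The hydrolase median was lower by 0.040 on the log2 scale. This difference lay between -0.063 (quantile normalization) and -0.036 (no filter on dim probes) under the alternatives that kept medians, and the difference of means was -0.0073. No error could be given for it from 1 array per condition. The hydrolases were the more spread of the groups, from -0.13 for Gla to 0.46 for Neu1, whereas V-ATPase genes ran from -0.14 for Atp6v0a2 to 0.28 for Atp6v1b2. The cumulative curves of the groups lay to the right of that of all genes over most of the range and crossed each other.

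**Figure D3:**
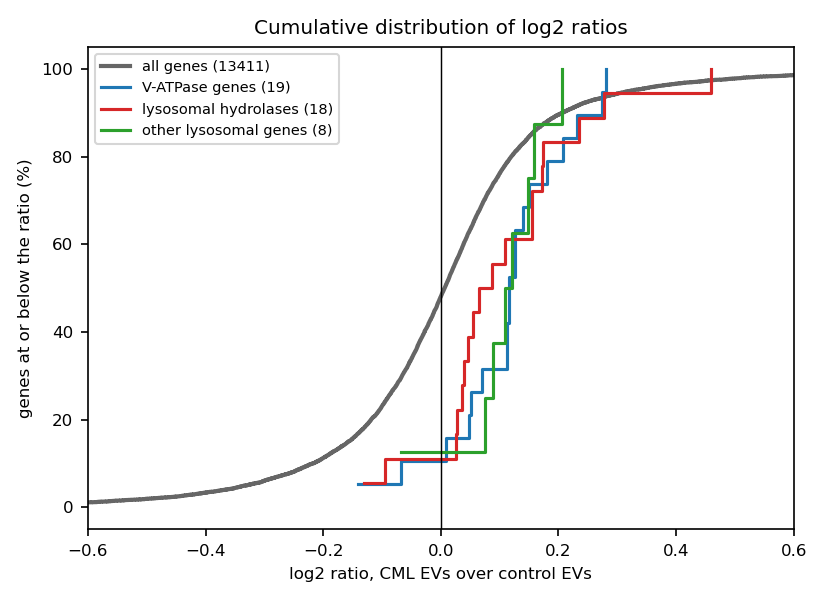
Percent of genes at or below each log2 ratio (CML EVs over control EVs) for all 13411 measured genes, 19 V-ATPase genes, 18 hydrolases and 8 other lysosomal genes. At a ratio of 0 the coloured curves stand near the bottom of the plot, since only 2, 2 and 1 genes of the groups lie below it, and the hydrolase curve reaches farthest to the right.

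Within the V1 sector, 8 of 9 measured genes were higher with CML EVs, with a median log2 ratio of 0.12. Atp6v1b2, the B2 subunit that pairs with the catalytic A subunit, gave 6246 with control EVs and 7586 with CML EVs, a log2 ratio of 0.28 that ranked 841 of 13411. Its dimmer probe moved the same way (0.35). Atp6v1e1, a peripheral stalk subunit, went from 3358 to 3877 (0.21). Thus the largest V1 ratios belonged to a head subunit and to a stalk subunit.

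Atp6v1c1, which links the peripheral stalks to V0, gave 938 and 1041 (0.15), and Atp6v1a, the catalytic subunit, gave 3547 and 3869 (0.13). The bright probes of Atp6v1f, part of the central rotor, read 27475 and 28400 (0.048). That of Atp6v1g1, a stalk subunit, read 14906 and 16152 (0.12). Atp6v1d of the central rotor and Atp6v1h, a regulatory subunit, also lay at 0.12 and 0.11, so that 5 of the 9 V1 ratios fell between 0.11 and 0.15.

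Where V1 has alternative isoforms, only 1 of them was usually measured. Atp6v1g2, the G isoform best known from neurons, was dim and gave 57.6 with control EVs and 54.9 with CML EVs (-0.068), beside 0.12 for Atp6v1g1. Its sign turned with scaling to the median. Atp6v1c2, the second C isoform, was well above background with control EVs alone (31.0, against 3.24 with CML EVs), at least 2.28-fold lower with CML EVs when the dim value is set to the lowest signal called above background on that array. This rests on 1 dim probe. Atp6v1b1, Atp6v1e2 and Atp6v1g3 were on neither array above background. Atp6v1b1 and Atp6v1g3 are known mainly from kidney and other acid-secreting epithelia and Atp6v1e2 from testis.

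In the V0 sector, 7 of 8 measured genes were higher, with a median of 0.091. The V1 median was higher than this by 0.025. Atp6v0c, the proteolipid that forms most of the proton-carrying ring, was highest, with 11894 and 13960 (0.23). A further probe of this gene read 0.23 as well. The probe of Atp6v0e, a small membrane subunit, gave 14603 and 15334 (0.070). Atp6v0b, the other ring proteolipid, and Atp6v0d1, which joins the ring to the central stalk, lay at 0.13 and 0.14.

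Isoforms of a V0 subunit differed in ratio. The a subunit forms the stator beside the ring and steers the pump to a compartment. Atp6v0a1 gave 2883 and 2986 (0.051), with 0.25 on its dimmer probe (74.2 and 88.3) and a mean over both of 0.15, while Atp6v0a2, found on Golgi and endosomes, gave 2034 and 1844 (-0.14), the lowest ratio of all 45 genes. The probes of Atp6v0a2 disagreed, since the dimmer one read 0.030. Tcirg1, which encodes the a3 isoform of lysosomes and osteoclasts and is not covered by the symbol rule, gave 11424 and 13285 (0.22), and Atp6v0a4, the renal isoform, was on neither array above background. Atp6v0d2, the d isoform of osteoclasts and macrophages, gave 171 and 185 (0.11), against 0.63 on a probe with signals of only 22.4 and 34.7. Atp6v0e2 gave 476 and 479 (0.0085), so that its level was nearly equal on both arrays.

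On the probes used, the 2 measured accessory protein genes had higher ratios than most subunit genes. Atp6ap2, also known as the prorenin receptor, gave 1956 and 2367 (0.27, rank 877 of 13411). Atp6ap1, which helps assemble V0, gave 1513 and 1714 (0.18), with 0.024 on its dimmer probe. The mean of both probes (0.10) was under 1.1-fold and below the V-ATPase median with probes averaged (0.13). Atp6ap1l was on neither array above background. The same was true of Atp6v1fnb, whose symbol marks it as a neighbor of Atp6v1f and not as a subunit. The pseudogenes Atp6v0c-ps1 and Atp6v0c-ps2 matched no probe. A list of V-ATPase assembly factors and partners not covered by the rule, which also held the subunit gene Tcirg1, was mostly higher. Of 8 measured, 7 were above 0, beside 51.9% of all genes, with a median of 0.18. The largest ratios were those of Dmxl2 (73.1 and 88.9, 0.28), Tcirg1, given above, and Wdr7 (740 and 856, 0.21). The probe of Dmxl2 was dim. Dmxl2 and Wdr7 form a complex that regulates assembly of the pump. At least 1.1-fold higher were 6 of the 8, beside 17.3% of all genes, and Dmxl1 was well above background with control EVs alone.

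**Figure D4:**
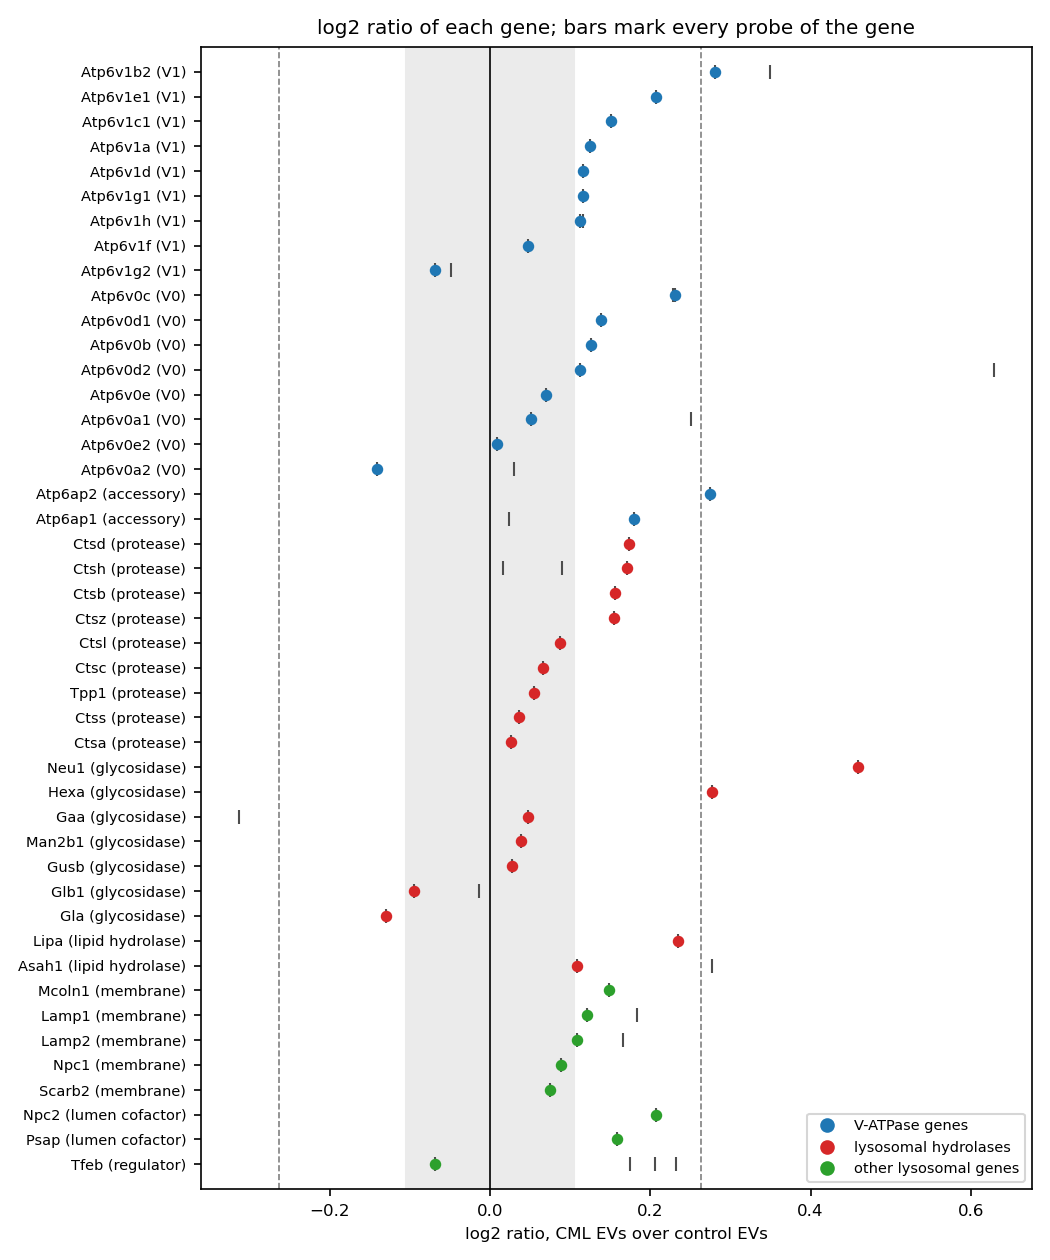
Log2 ratios (CML EV minus control EV) of 45 genes, ordered by role. Points are the probe used for a gene, short bars are all its measured probes, and dashed lines mark 1.2-fold. The grey band spans 2 SDs to either side of 0, from repeated spots with a log2 signal of at least 8 (SD 0.052). It is too narrow for dimmer probes (SD 0.15). Atp6v1b2, Atp6ap2, Hexa and Neu1 lie beyond the right dashed line, and the bars of Atp6v0d2, Gaa and Tfeb lie far from their points.

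All 9 measured proteases were higher with CML EVs, though none by 1.2-fold and Ctsa not under every alternative. Ctsd, the aspartic protease cathepsin D, gave 24048 and 27130 (0.17). Ctsh, a cysteine aminopeptidase, gave 2369 and 2669 (0.17), with 0.090 and 0.016 on dimmer probes. Ctsb, an abundant cysteine protease, gave 25167 and 28032 (0.16), and Ctsz, a carboxypeptidase, gave 14250 and 15867 (0.16). These 4 were at least 1.1-fold higher, but Ctsh was not when its probes were averaged (0.092). Ctsb and Ctsz fell below 1.1-fold under quantile normalization (0.12 and 0.11) and loess (0.13 and 0.12).

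The other proteases lay closer to 0. Ctsc, which activates the serine proteases of granules, gave 6210 and 6499 (0.066). Tpp1, a tripeptidyl peptidase, gave 4330 and 4499 (0.055), and Ctss, which processes the invariant chain, gave 23994 and 24609 (0.036). Ctsa, a carboxypeptidase, gave 22217 and 22627 (0.026) and changed sign with the setting. The median over the proteases was 0.087.

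Ctsl, a cysteine endopeptidase, was printed 10 times on each array, which allowed its ratio to be read against spots of the same probe. With control EVs the 8 spots used lay between 12201 and 12555, with a median of 12356. With CML EVs the 10 spots lay between 12028 and 14188, with a median of 13276. The ranges overlapped, and 8 of the 10 CML EV spots lay above the highest control EV spot used. The log2 ratio was 0.087 with an SE over spots of 0.022. However, 2 control EV spots that Feature Extraction had marked as outliers, at 13949 and 14150, had been left out, and with such spots kept the ratio was 0.050.

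**Figure D5:**
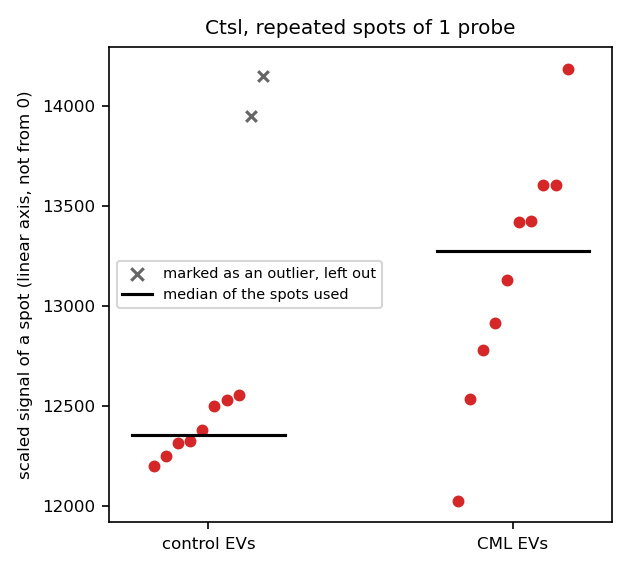
Scaled signal of each repeated spot of the Ctsl probe on a linear axis that does not start at 0, 10 spots per array. Crosses are 2 control EV spots marked as outliers and left out, and horizontal lines are medians of the spots used. Most CML EV spots lie above the control EV spots used and below the crosses.

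The glycosidases held both the highest and the lowest hydrolase ratios. Neu1, the lysosomal sialidase, gave 5048 and 6941, a log2 ratio of 0.46 (1.37-fold) that ranked 348 of 13411. Hexa, the alpha subunit of beta-hexosaminidase, gave 4457 and 5403 (0.28, 1.21-fold). Both were measured by 1 probe each. No other glycosidase reached 1.1-fold.

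Gaa, acid alpha-glucosidase, gave 3417 and 3530 (0.047), with -0.31 on its dimmer probe, and Man2b1, an alpha-mannosidase, gave 7870 and 8086 (0.039). Gusb, beta-glucuronidase, gave 6718 and 6845 (0.027). Gaa and Gusb each changed sign under at least 1 alternative. Gla, alpha-galactosidase A, gave 70397 and 64340 (-0.13), and Glb1, beta-galactosidase, gave 3748 and 3510 (-0.094), lower with CML EVs under every alternative tried. The median of the 7 glycosidases was 0.039, which was 0.048 below that of the proteases. Neu1, Glb1 and Ctsa, whose proteins form a complex in which cathepsin A protects the other two, thus had ratios of 0.46, -0.094 and 0.026.

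The lipid hydrolases were both higher. Lipa, the acid lipase that frees cholesterol from its esters, gave 1370 and 1612 (0.23, 1.18-fold). Asah1, acid ceramidase, gave 2007 and 2165 (0.11), with 0.28 on its dimmer probe. Npc2, the lumenal protein that takes up this cholesterol, gave 8857 and 10222 (0.21). Its membrane partner Npc1 gave 810 and 862 (0.089). Psap, the precursor of the saposins that assist lipid hydrolases, gave 14821 and 16536 (0.16). These 5 genes were therefore all on the higher side, and none reached 1.2-fold.

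All 5 membrane protein genes were higher, Npc1 among them. Lamp1 and Lamp2, the main glycoproteins of the lysosomal membrane, gave 30198 and 32847 (0.12) and 3642 and 3926 (0.11), and a further probe of each moved the same way (0.18 and 0.17). Mcoln1, the calcium channel TRPML1, gave 2960 and 3279 (0.15). Scarb2, the carrier that brings glucocerebrosidase to lysosomes, gave 836 and 881 (0.075). With Npc1, these 5 ratios spanned 0.075 to 0.15.

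Tfeb, the transcription factor of the set, was dim and its direction was not settled. The probe used gave 166 with control EVs and 158 with CML EVs (-0.068), whereas its other 3 probes read 0.23, 0.21 and 0.17. Of 15 genes with more than 1 measured probe, 10 were higher on every probe, 2 (Glb1 and Atp6v1g2) were lower on every probe, and 3 (Atp6v0a2, Gaa and Tfeb) had probes on both sides of 0. The gap between the highest and lowest probe of a gene had a median of 0.16.

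Other genes of the lysosomal pathway were listed by role, also with earlier results of these data known, so they are no independent comparison. Their median was lower. Of 103 measured genes, 69 (67.0%) were above 0, beside 51.9% of all measured genes, and the median was 0.077. At least 1.1-fold higher were 31 (30.1%), beside 17.3% of all genes, and 5 were at least 1.1-fold lower, beside 17.2%. At 1.2-fold, 7 (6.80%) were higher, beside 6.96% of all genes, and 1 was lower, beside 7.52%.

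A further list of lysosomal hydrolases had 38 measured genes, among them the cofactor Gm2a and the acetyltransferase Hgsnat, which are no hydrolases. Above 0 were 22 (57.9%), near the 51.9% of all genes, beside 16 of the 18 hydrolases given before, and the median was 0.045. Of the 38, 12 (31.6%) were at least 1.1-fold higher, beside 17.3% of all genes, and 4 were at least 1.1-fold lower, beside 17.2%. The largest ratios were those of Hyal1, a hyaluronidase (27.7 and 41.6, 0.59), Ctsw, a cathepsin of cytotoxic lymphocytes (40.5 and 31.0, -0.39), and Arsb, arylsulfatase B (71.8 and 93.1, 0.38), all of them dim. Galc was well above background with CML EVs alone. Of 25 further membrane proteins, 17 (68%) were above 0 (median 0.079), beside 51.9% of all genes. They were led by Mfsd8 (13.9 and 17.5, 0.34), the cystine exporter Ctns (517 and 618, 0.26) and the nucleoside transporter Slc29a3 (247 and 294, 0.25). Mfsd8 lay close to the lowest signals called above background, 12.9 with control EVs and 13.6 with CML EVs. Among 4 measured endolysosomal nucleases, 2 were above 0 (median 0.049), beside 51.9% of all genes. Pld3, a single-strand exonuclease, gave 1428 and 1667 (0.22), Dnase2a, the acid DNase that degrades DNA delivered to lysosomes, gave 5205 and 4750 (-0.13), and Rnaset2a, an acid RNase, gave 11578 and 12484 (0.11).

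Of 9 genes listed for the sorting of hydrolases to lysosomes, mostly by a mannose 6-phosphate tag, 7 were above 0 (median 0.065), beside 51.9% of all genes. Sort1, the receptor sortilin, which sorts without that tag, had the largest ratio of the list with 2828 and 3751 (0.41, 1.33-fold). It was the only 1 of the 9 at least 1.1-fold higher, beside 17.3% of all genes. Gnptg (0.10) and Gnptab (0.099), subunits of the enzyme that starts the tag, came next. In the list of TFEB relatives and mTORC1 docking proteins, 12 of 16 measured were above 0 (median 0.068), beside 51.9% of all genes. Tfec gave 667 and 944 (0.50, 1.42-fold), Tfe3, a paralog of Tfeb with the same target element, gave 3554 and 4260 (0.26), and Fnip1, a folliculin partner, gave 760 and 860 (0.18). Rragb was well above background with control EVs alone and Rragd with CML EVs alone. Of 3 cystatins, inhibitors of cysteine cathepsins (median 0.19), Cstb gave 7079 and 8596 (0.28), Cst7 gave 7207 and 8208 (0.19) and Cst3 gave 20599 and 19560 (-0.075).

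Marker genes of the cells were read on the same arrays, where 51.9% of all measured genes were above 0. Kit gave 1646 and 1529 and Ly6a, which encodes Sca-1, gave 1548 and 1985, so both genes that define the sort were well above background on both arrays. Of the 9 measured stem and progenitor markers, Kit and Ly6a included, Ly6a was above 0 and the other 8 were below 0 (median -0.11), their signals summed to 38981 on the control EV array and 35375 on the CML EV array, and Mecom was not above background on either array. All 6 megakaryocyte markers were below 0 (median -0.29). Primary granule genes of myeloid precursors were all higher, 6 of 6 (median 0.72, summed signal 314500 and 410316). Late neutrophil markers were above 0 in 8 of 10 (median 0.60, summed signal 241771 and 317908), and Mmp9 was not above background on either array.

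Macrophages are rich in lysosomes, and their markers moved less uniformly. Of 12 measured monocyte and macrophage markers, 8 were above 0 (median 0.067), and their signals summed to 59139.5 on the control EV array and 76678 on the CML EV array. Of this sum Ly6c2, a marker of inflammatory monocytes, gave 30081 and 47021 (0.64, 1.56-fold), and without it the sums were 29059 and 29657 (1.02-fold). Spic (61.8 and 88.9, 0.52) and Fcgr1 (1432 and 1793, 0.32) were also higher. Lower were Mrc1 (787 and 624, -0.34), Ccr2 (981 and 840, -0.22), Lyz2 (8633 and 8435) and C1qb, which was dim (37.8 and 33.2). Csf1r gave 10425 and 10782. Marco and Siglec1 were well above background on 1 array only, and C1qa was not above background on either array. Mast cell and basophil markers had a median of 0.062 (6 of 8 above 0) and erythroid markers 0.084 (2 of 4 above 0). What part these shifts in marker genes had in the ratios of the lysosomal genes was not tested. In RNA of a whole culture, a change in the share of a cell type and a change in RNA per cell cannot be told apart.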

How the data were processed

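LKS+ cells were measured on 2 one-colour arrays. Per the file headers and labels, the authors deposited scanner files with the background-subtracted intensity of 59305 spots per array, made with Agilent Feature Extraction 12.0.3.1 (submitters' processing notes), and a value table that holds this intensity times 1 factor per array. Spots marked as outliers (95 with control EVs, 88 with CML EVs) were left out, and both arrays were brought to a trimmed mean of 2500 (without the upper and lower 2% of spots), as the methods state. Of 56604 probes, 32994 had a symbol through their RefSeq accession (table of GRCm38.p6), and the others entered no count. The array files refer to another assembly (mm9), so no probe coordinates are given. Several probes of a gene were reduced to the one brightest with CML EVs, as in the methods, and genes well above background on both arrays were counted. Genes above background on 1 array have a bound only.

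The members and lists were chosen with earlier results of these data known. Named in full were the 6 largest absolute ratios and 3 brightest probes of each group, isoform sets, proteases, glycosidases, Tfeb and Mcoln1, and of each pathway list the 3 largest absolute ratios. Gene lists were described by counts and medians. Alternatives covered scaling (75th percentile, median, quantile), normexp background correction with offset 50, the deposited values, choice of probe, filters, outlier spots, loess (span 0.3), fold threshold and mean. Python 3.11.15, numpy 2.4.6, pandas 2.3.3, scipy 1.17.1, statsmodels 0.14.6, R 4.3.3 and limma 3.58.1 were used, and the ratio step was tested on simulated data.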

Additional observations from a re-analysis of the deposited data

How the results depend on the processing

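Scaling to the median moved the median of all genes by 0.070 and the medians of V-ATPase genes, hydrolases and other lysosomal genes to 0.19, 0.15 and 0.19. It gave 4 V-ATPase genes and 1 other lysosomal gene at least 1.2-fold higher, and over all genes 1475 higher and 662 lower (69.0% of calls higher, against 48.0% with the scaling used). It turned Atp6v1g2 to 0.0020 and Tfeb to 0.0023, and the mean of all probes turned Tfeb to 0.14. Quantile normalization, normexp and loess each left 0 V-ATPase genes and 1 hydrolase at least 1.2-fold higher, and normexp gave 500 higher and 335 lower among all genes (59.9% higher). The cause was not tested. By construction, counts moved with the filter and the threshold. With probes above background on 1 array or more, 1 V-ATPase gene was at least 1.2-fold lower. With no filter there were 2, and 2564 higher and 2864 lower genes in all. At 1.1-fold, 7 V-ATPase genes, 7 hydrolases and 3 others were higher, 1 V-ATPase gene was lower, and 2318 and 2310 of all genes were higher and lower. At 1.5-fold, 0 V-ATPase genes and 0 hydrolases were higher, and 204 and 158 of all genes were higher and lower.

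Of 45 genes, 37 stayed above 0 and 3 (Atp6v0a2, Gla and Glb1) below 0 under all 11 alternatives run for single genes. Atp6v1g2, Ctsa, Gaa, Gusb and Tfeb took both signs. Not all of these alternatives were separate checks. The deposited values, the probe brightest with control EVs and both looser filters left the ratio of each gene unchanged. Keeping outlier spots changed the ratio of Ctsl alone. Scaling to a percentile or to the median shifted all genes equally. The sign counts therefore rest on that shift, quantile normalization, normexp, loess and the mean of all probes. The members' median exceeded that of all genes by 0.068 with no filter and by 0.086 to 0.12 otherwise. No paired analysis was possible because there is 1 array per condition. Dim probes limit Atp6v1g2, Atp6v1c2, Atp6v0d2 and Tfeb most, since repeated spots varied more at low signal.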
